A study of Mus musculus with 2 samples.

Results

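The potassium and HCN channel genes of the mouse were followed through open chromatin of the hippocampus. They were taken by symbol, as the autosomal protein-coding genes of GENCODE M21 whose symbol begins with Kcn or is that of an HCN subunit, which gave 96 of 20722 genes. Kcnd1 and Kcne1l also matched by symbol and lie on the X chromosome, so these 2 genes were not used. The choice used no measured value. Subfamilies were read from the letter after Kcn, and this gave 20 groups with Hcn counted as one of them.

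The assay was DNase-seq, which sequences the ends left where the enzyme DNase I cut nuclear DNA that nucleosomes did not cover. The series held 1 group of 2 biological replicates of a tissue labelled layer of hippocampus, from B6CASTF1/J males aged 2 months, so each animal carries a B6 and a CAST copy of every autosome, and both copies were counted together. The biosamples were separate but carried the same donor entry, and the labels leave unsaid if 1 animal or several gave the tissue, so differences between replicates may be partly technical. There was no treatment, no second tissue and no control group, so no test between groups was possible, and the main counts are set beside the same counts over all autosomal protein-coding genes.

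Potassium channels let potassium leave or enter the cell along its gradient and so set the resting potential, shape the action potential and limit firing. The voltage-gated Kv families (Kcna, Kcnb, Kcnc, Kcnd, Kcnh, Kcnq and the silent Kcnf, Kcng, Kcns and Kcnv) open on depolarization, the calcium- and sodium-activated families (Kcnma, Kcnn, Kcnt) follow ions inside the cell, the inward rectifiers (Kcnj) and the leak channels with paired pore domains (Kcnk) hold the membrane near rest, and Kcnab, Kcne, Kcnip and Kcnmb code for auxiliary proteins. HCN channels are related in sequence but pass a mixed sodium and potassium current on hyperpolarization, which in hippocampal pyramidal dendrites filters synaptic input. An open promoter marks DNA that regulatory proteins can reach and does not by itself measure how much RNA or channel is made.

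The sequences below are those of 4 members among the 5 with the highest promoter peaks and of the 3 strongest sites far from promoters by mean height of both replicates, with the promoters of 2 members without any peak for contrast. Each is 200 bases of the reference genome GRCm38 (mm10), which is the C57BL/6J sequence, so the CAST allele in these animals may differ. Capitals mark bases inside footprints called in both replicates, which are short stretches protected from cutting inside open chromatin. The promoter runs follow the strand of the gene and lie over the peak that both replicates shared. The Kcnab2 promoter run is chr4:152477484-152477683 on the minus strand, and the others are Kcnh1 at chr1:192190581-192190780 on the plus strand, Kcnj2 at chr11:111065990-111066189 on the plus strand and Kcnn3 at chr3:89519961-89520160 on the plus strand.
Kcnab2 promoter: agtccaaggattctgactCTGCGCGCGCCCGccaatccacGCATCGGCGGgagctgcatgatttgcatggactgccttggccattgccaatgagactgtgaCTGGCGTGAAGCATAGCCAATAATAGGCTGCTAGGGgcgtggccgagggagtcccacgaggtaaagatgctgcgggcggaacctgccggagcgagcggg
Kcnh1 promoter: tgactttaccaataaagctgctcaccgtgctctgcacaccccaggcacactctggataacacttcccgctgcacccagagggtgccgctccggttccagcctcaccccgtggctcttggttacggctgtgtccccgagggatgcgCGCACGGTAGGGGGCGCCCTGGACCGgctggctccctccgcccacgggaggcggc
Kcnj2 promoter: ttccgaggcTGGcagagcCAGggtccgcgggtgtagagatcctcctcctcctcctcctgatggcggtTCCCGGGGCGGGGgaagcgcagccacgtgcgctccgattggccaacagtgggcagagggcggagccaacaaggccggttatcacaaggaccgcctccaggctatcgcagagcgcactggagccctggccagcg
Kcnn3 promoter: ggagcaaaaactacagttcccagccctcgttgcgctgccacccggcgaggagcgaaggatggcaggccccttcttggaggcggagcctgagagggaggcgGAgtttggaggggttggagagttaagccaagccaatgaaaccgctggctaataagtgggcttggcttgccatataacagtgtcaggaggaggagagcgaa

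The sites far from promoters are given on the plus strand of GRCm38. They are chr4:152434921-152435120 in an intron of Kcnab2, chr6:126702291-126702490 between genes beside Kcna6, and chr19:59239551-59239750 between genes beside Kcnk18. The promoters without a peak run from 150 bases before the main start onward and are Kcna10 at chr3:107182906-107183105 on the plus strand and Kcne1 at chr16:92359419-92359618 on the minus strand.
Kcnab2 intron site: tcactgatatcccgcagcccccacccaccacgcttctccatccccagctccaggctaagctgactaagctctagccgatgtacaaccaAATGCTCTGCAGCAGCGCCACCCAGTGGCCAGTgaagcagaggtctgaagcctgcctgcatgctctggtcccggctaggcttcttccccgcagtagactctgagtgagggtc
Kcna6 flank site: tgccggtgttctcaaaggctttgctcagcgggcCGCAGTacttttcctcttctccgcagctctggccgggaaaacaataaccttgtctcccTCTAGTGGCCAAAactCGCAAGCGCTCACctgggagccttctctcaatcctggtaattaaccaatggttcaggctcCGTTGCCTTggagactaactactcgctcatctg
Kcnk18 flank site: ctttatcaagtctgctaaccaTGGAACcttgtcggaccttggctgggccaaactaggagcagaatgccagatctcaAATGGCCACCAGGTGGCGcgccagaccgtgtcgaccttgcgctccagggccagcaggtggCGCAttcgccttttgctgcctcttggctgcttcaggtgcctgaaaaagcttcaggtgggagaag
Kcna10 promoter: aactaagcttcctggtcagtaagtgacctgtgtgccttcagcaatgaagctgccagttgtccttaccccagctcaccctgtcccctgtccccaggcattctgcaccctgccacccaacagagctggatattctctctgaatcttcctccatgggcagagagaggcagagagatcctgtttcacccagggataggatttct
Kcne1 promoter: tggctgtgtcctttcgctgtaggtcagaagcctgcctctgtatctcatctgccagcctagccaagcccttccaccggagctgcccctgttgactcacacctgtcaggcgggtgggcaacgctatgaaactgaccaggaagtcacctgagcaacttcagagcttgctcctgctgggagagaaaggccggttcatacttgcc

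In these runs the Kcnh1 promoter carried a single footprint of 26 bases that lies just past the end of the shared peak and covers the 9 letters AGGGGGCGC, a core of the motif of the insulator protein CTCF. The Kcnk18 flank site held matches to the longer CTCF consensus at bases 82 to 93, all inside a footprint, and at bases 126 to 137, where 1 base was in a footprint. The Kcnab2 promoter held 59 footprint bases in 3 footprints of both replicates. The Kcna10 and Kcne1 promoters held none, and the Kcna10 run held no CpG at all, against 16 in the Kcnab2 promoter run.

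A promoter is called open below where a peak shared by both replicates, the stretch where their peaks overlap by at least 1 bp, lies within 500 bp of any protein-coding start of the gene. The longer of each sample's 2 deposited peak lists was used, and height is the authors' deposited signal value, whose scale was not given in the sources used here. For an open promoter it is that of the highest peak of each replicate that overlaps a shared peak in the window. Other peaks of a replicate in the same window were left out of it. Of the 96 members 63 were open, which is 65.6%, against 58.2% of all autosomal protein-coding genes. Replicate 1 alone had a promoter peak at 77 members, 80.2% against 64.6% of all genes, and replicate 2 at 66 members, 68.8% against 59.6%. No peak in either replicate was found at 19 members, 19.8% against 34.7% of all genes. The excess did not hold under stricter calling. With the shorter deposited lists 41 members were open, 42.7% against 52.3% of all genes. With a window of 200 bp the shares were 56.2% of members and 55.7% of all genes, and with the main start of each gene alone they were 54.2% and 53.9%. Peaks read in whole tissue mix all its cell types, and fewer cells of a type and less open chromatin per cell cannot be told apart.

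The open promoters of the channel genes were low. Their median height was 1.78 in replicate 1 and 1.39 in replicate 2, against 4.16 and 2.52 over all 12064 open genes. At or below the median of all open genes in both replicates lay 57 of the 63, 90.5% against 42.9% of all open genes, and 38 lay in the lowest 25 percent in both, 60.3% against 20.2%. Above the median in both replicates stood 5 members, among them Kcnab2, Kcnh1, Kcnj2 and Kcnn3, and Kcnab2 alone was in the top 10 percent in both. Footprints were found less often. A footprint of both replicates is one where footprints of the 2 overlap by at least 1 bp. In the promoter window 44 open members, 69.8%, had one, against 82.1% of all open genes. With 50% reciprocal overlap of footprints 30 of the 63 had one, and the share over all open genes was not computed in that setting. Over the 63 open members mean height and number of footprints of both replicates had a Spearman rho of 0.555, a description of points that share 2 libraries.

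**Figure D1:**
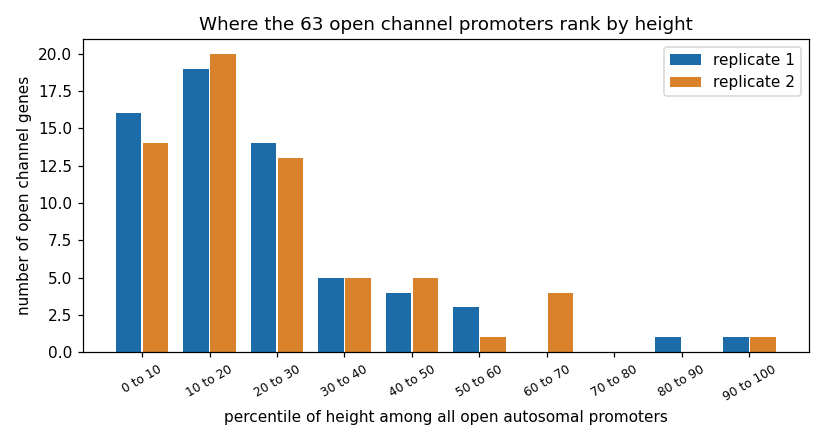
Number of open channel genes (vertical axis) in each bin of promoter height among all open autosomal genes (horizontal axis, in percentiles), for replicate 1 in blue and replicate 2 in orange. The 3 lowest bars hold 16, 19 and 14 of the 63 genes in replicate 1 and 14, 20 and 13 in replicate 2, and the top bar holds Kcnab2 alone.

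Among families of several genes the share of open promoters ranged between all members and 1 in 4, over groups of 2 to 15 genes. Every member was open in Hcn (4 of 4), Kcnb (2 of 2), Kcnd (2 of 2), Kcnt (2 of 2), and in the lone members Kcnf1 and Kcnu1. Open promoters were found in 9 of 11 Kcna and Kcnab genes, in 6 of 8 Kcnh genes, and in 3 of 4 members each of Kcnc, Kcng, Kcnip and Kcnn. Between these and the lower shares stood Kcns with 2 of 3, and Kcnq and the Kcnma and Kcnmb genes with 3 of 5 each, while Kcnv had 1 of 2. The largest families were split, with 7 of 15 Kcnj genes and 7 of 14 Kcnk genes open. The lowest shares among families of several genes were in Kcne, with 1 of 4 open, and in Kcnj. Of the 17 subfamilies with at least 2 members 13 stood above the 58.2% of all genes. With the stricter lists 5 stood above the 52.3% of all genes in that setting, where Kcnc had 1 of 4 open and Kcnh 5 of 8.

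**Figure D2:**
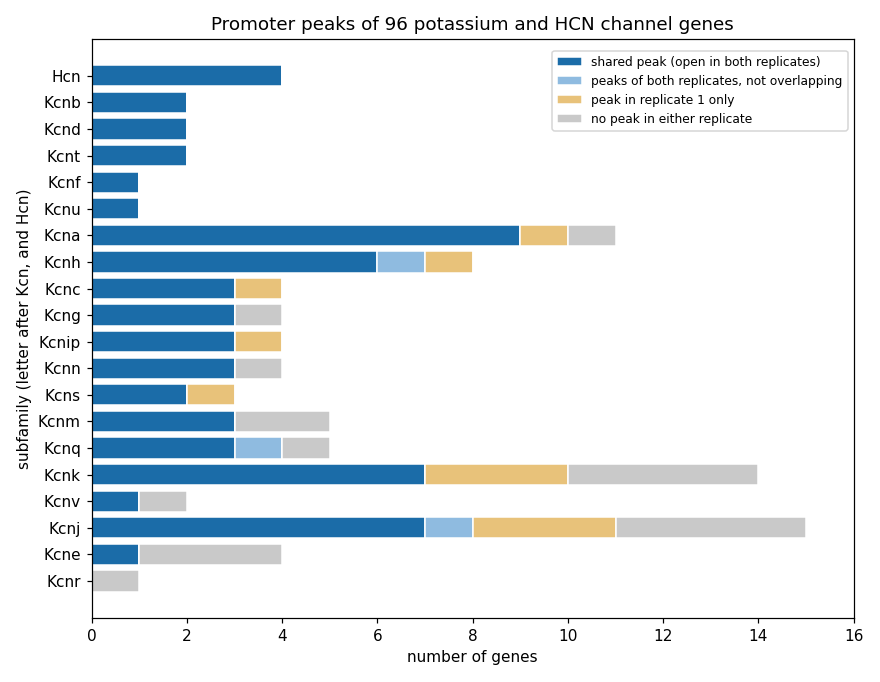
Number of genes (horizontal axis) per subfamily (vertical axis, ordered by the share of open promoters), divided into genes with a shared peak, with peaks of both replicates that do not overlap, with a peak in replicate 1 only and with no peak. Hcn, Kcnb, Kcnd and Kcnt are dark blue throughout, whereas Kcnj and Kcnk hold 4 genes each without a peak and Kcne holds 3.

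Most promoters of the channels listed here as known from hippocampal neurons were open. Most of those listed as known mainly from other organs were not. Of 47 genes known from hippocampal neurons 42 were open, 89.4% against 58.2% of all genes, and those not open were Kcnc4, Kcnip1, Kcnj9, Kcnk4 and Kcnk9. Of 9 genes known mainly from glia, immune cells or vessels 5 were open, and of 18 known mainly outside the brain 4 were open, 22.2%, which were Kcna7, Kcne3, Kcnk5 and Kcnu1. The remaining 22 genes, put in no list, had 12 open. These lists follow textbook roles and were drawn up with earlier results of these data known, so the counts describe and do not test. Hcn4, known also from the heart, was counted as neuronal, and Kcnh2, known from the heart and open, was in no list. Median bodies were 59.7 kb in the neuronal list and 16.4 kb in the list of genes known outside the brain. The part of body length in the contrast was not tested. With the stricter lists the neuronal count was 28 of 47, or 59.6%, against 52.3% of all genes, and the count for genes known outside the brain was 3 of 18.

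The HCN genes were all open, in 4 of 4 cases. Hcn2, widespread in brain and heart, had a promoter height of 0.914 in replicate 1 and 1.37 in replicate 2, Hcn3 had 1.34 and 0.914, and Hcn4, the pacemaker subunit of the heart, had 1.06 and 0.796. All 3 stood below percentile 20 of all open genes in both replicates. Their order changed between replicates, Hcn3 standing above Hcn2 in replicate 1 and below it in replicate 2. None of these 3 promoters was open in the stricter lists.

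The Kcna genes code for the Kv1 channels of axons and terminals, and 6 of the 8 pore-forming members were open, all below percentile 27 of all open genes in both replicates. Kcna4, coding for the fast-inactivating Kv1.4 of hippocampal mossy fibres and axons, had 2.2 in replicate 1 and 1.56 in replicate 2. Kcna2, an axonal delayed rectifier, had 2.19 and 1.34, and Kcna1, whose loss causes seizures in mice, had 1.02 and 1.52. Kcna7, known from muscle, was also open, at 2.33 and 1.39. Kcna3, known from T cells and microglia, had 1.78 and 1.14, and Kcna6 had 1.15 and 1.29. The 6 open genes each had at least 1 footprint of both replicates. Kcna5, the atrial Kv1.5, had a peak in replicate 1 only, of height 0.39, and Kcna10, known from the inner ear and kidney, had no peak.

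The Kcnab genes, whose beta subunits bind Kv1 channels in the cytoplasm, held the highest promoter of the whole set. Kcnab2 had a height of 11.8 in replicate 1 and 5.9 in replicate 2, at percentiles 99.1 and 99.3 of all open genes, with 5 footprints of both replicates. A start of Nphp4, a gene of the primary cilium on the opposite strand, lay 271 bp from a Kcnab2 start, so this peak cannot be assigned to either gene alone. No other open member had a start of another protein-coding gene within 1000 bp. Kcnab3 had 2.05 and 0.914, and Kcnab1, a beta subunit of hippocampal pyramidal cells, had 1.19 and 1.41. The peak of Kcnab2 sat at the most upstream of its 3 start clusters, and the clusters 22.8 kb and 29 kb downstream had no shared peak.

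The Kv2, Kv3 and Kv4 genes were open in 7 of 8 cases. Kcnb2, a delayed rectifier, had 1.68 in replicate 1 and 1.42 in replicate 2. Kcnd2, coding for Kv4.2, the main carrier of the dendritic A-type current, had 1.86 and 1.95, and Kcnd3 had 0.952 and 1.22. Both replicates placed Kcnd2 above Kcnd3.

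Among the Kcnc genes for the Kv3 channels of fast-spiking cells, Kcnc1 had 1.93 in replicate 1 and 1.75 in replicate 2, with shared peaks at both of its start clusters, and Kcnc2 had 0.556 and 0.818. Kcnc4, known from the dentate gyrus, had a peak in replicate 1 only, of height 0.898.

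The Kcnip genes code for calcium-binding partners of Kv4 channels. Kcnip4 had 2.62 in replicate 1 and 2.33 in replicate 2, Kcnip3 had 1.8 and 1.17, and Kcnip2 had 1.52 and 1.46. Kcnip1, known from interneurons, had a peak in replicate 1 only, of height 0.963. Over a body of 1135 kb Kcnip4 had 4 start clusters, of which 3 were open, the most downstream of these at heights of only 0.31 and 0.613.

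The silent subunits Kcnf, Kcng, Kcns and Kcnv make no current alone and alter Kv2 channels, and 7 of 10 were open. Kcns2 had 2.29 in replicate 1 and 1.54 in replicate 2, with 4 footprints of both replicates. Kcng2 had 2.02 and 1.24, Kcnv1 had 2.01 and 1.29, and Kcnf1 had 1.79 and 1.56. Kcng1 followed with 1.64 and 1.13, and the lowest by shared peaks were Kcng3 at 0.481 and 0.796 and Kcns3 at 0.62 and 0.764. Peaks that overlapped no shared peak were higher in these 2 windows, at 1.03 for Kcng3 in replicate 1 and 1.41 for Kcns3 in replicate 2. Kcns1, known from sensory neurons, had a peak in replicate 1 only, of height 0.46. Kcng4, and Kcnv2, a subunit of photoreceptors, had no peak.

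The Kcnh genes code for the ether-a-go-go, erg and elk channels, and 6 of 8 were open with the highest median of any family of several genes in replicate 1, 3.15, and 1.69 in replicate 2. Kcnh1 had 7.42 and 3.16, with 3 footprints of both replicates. Kcnh4 had 3.78 and 1.48, Kcnh2, the erg channel of cardiac repolarization, had 3.5 and 2.05, and Kcnh3, an elk channel of forebrain, had 2.79 and 1.75. Kcnh5 had 1.27 and 1.58 and Kcnh7 had 0.914 and 1.64, and these were the 2 open Kcnh genes that were higher in replicate 2. Kcnh6 had a peak in replicate 1 only, of height 0.439, and the peaks of Kcnh8, 0.278 and 0.398, did not overlap.

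The Kcnq family, which includes the channels of the M current that muscarinic input closes to raise excitability, was open in 3 of 5 cases. Kcnq3 had 3.73 in replicate 1 and 2.32 in replicate 2, while Kcnq5 had 1.2 and 1.11. Kcnq1, the cardiac and epithelial subunit, had no promoter peak and no interval under the deposited FDR limit of 0.05, but held 5 distal sites in its body and flanks. Of these, the site at chr7:143296541-143296800, with heights of 3.65 and 1.45, overlapped a start of Kcnq1ot1, the antisense RNA of the imprinted Kcnq1 domain.

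The Kcne genes, whose small subunits pair with Kcnq1 and other channels, were mostly closed. Kcne3 was open at 0.92 in replicate 1 and 0.764 in replicate 2, and Kcne1, Kcne2 and Kcne4 had no peak and no interval under the FDR limit.

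The calcium- and sodium-activated channels of neurons were all open. Kcnn3, coding for the small-conductance channel SK3, had 4.64 in replicate 1 and 2.57 in replicate 2. Kcnn1 had 2.62 and 1.37, and Kcnn2, the SK2 channel of pyramidal dendrites, had 0.396 and 0.699. By shared peaks Kcnn2 was the lowest open Kcnn gene in both replicates. A higher peak in its windows, of 1.09 in replicate 1, overlapped no shared peak there. With the stricter lists Kcnn2 was open and Kcnn1 was not. Kcnma1, coding for the large-conductance BK channel, had 1.55 and 1.99, with 6 footprints of both replicates, more than any other member. Kcnt2 had 1.28 and 1.13 and Kcnt1 had 0.711 and 0.925. Of the BK beta subunits, Kcnmb4, the neuronal one, had 1.39 and 1.15 and Kcnmb2 had 0.749 and 0.656. Kcnmb1 of smooth muscle, Kcnmb3 and Kcnn4, known from blood cells and epithelia, had no peak. Kcnu1, the sperm-specific Slo3 channel, was open at 0.759 and 0.645, not at its most upstream start but at starts 62.1 kb downstream of it.

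Of the inward rectifiers 7 of 15 were open, among them neuronal, glial and vascular genes. Kcnj2, coding for Kir2.1, led with 4.66 in replicate 1 and 3.07 in replicate 2, Kcnj11, the pore of the ATP-sensitive channel, had 3.41 and 1.53, and Kcnj4, a Kir2 channel of forebrain neurons, had 2.3 and 1.47. The G-protein-gated genes Kcnj6 and Kcnj3 had 2.91 and 2.41 and 2.78 and 1.85, while Kcnj9, the remaining neuronal member of that group, had a peak in replicate 1 only, of height 2.78. That peak was as high in replicate 1 as that of Kcnj3, and replicate 2 had no interval under the FDR limit there. Kcnj10, coding for the astrocytic Kir4.1 that clears potassium, likewise had a peak in replicate 1 only, of height 2.65. Kcnj16, its partner subunit, was open at 0.39 and 0.344, and Kcnj8 of pericytes at 0.401 and 0.463, the 2 lowest open members by mean height. Kcnj5 had a peak in replicate 1 only, of height 0.455, and the peaks of Kcnj12, 0.578 and 0.721, did not overlap. Kcnj1 of kidney, Kcnj13 of epithelia, Kcnj14 and Kcnj15 had no peak.

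Among the leak channels Kcnk, Kcnk12, coding for THIK-2, led with 3.18 in replicate 1 and 2.3 in replicate 2. Kcnk13, coding for THIK-1, the resting channel of microglia, had 2.08 and 1.37. Kcnk10, Kcnk1 and Kcnk2, coding for TREK-2, TWIK-1 and TREK-1, had 1.81 and 1.6, 1.53 and 1.91, and 1.18 and 1.1. The acid-sensitive TASK genes were split, since Kcnk3 was open at 0.743 and 1.06, whereas Kcnk9, coding for TASK-3, had no peak and no interval under the FDR limit. Kcnk5, coding for TASK-2, known from kidney, was open at 1.76 and 0.99. Kcnk4, coding for TRAAK, had a peak in replicate 1 only, of height 0.893, as had Kcnk6 at 0.824 and Kcnk16 at 1.28. Kcnk7, Kcnk15 and Kcnk18 had no peak. Kcnrg, a regulator of channel assembly and the lone member of its letter, had none either.

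**Figure D3:**
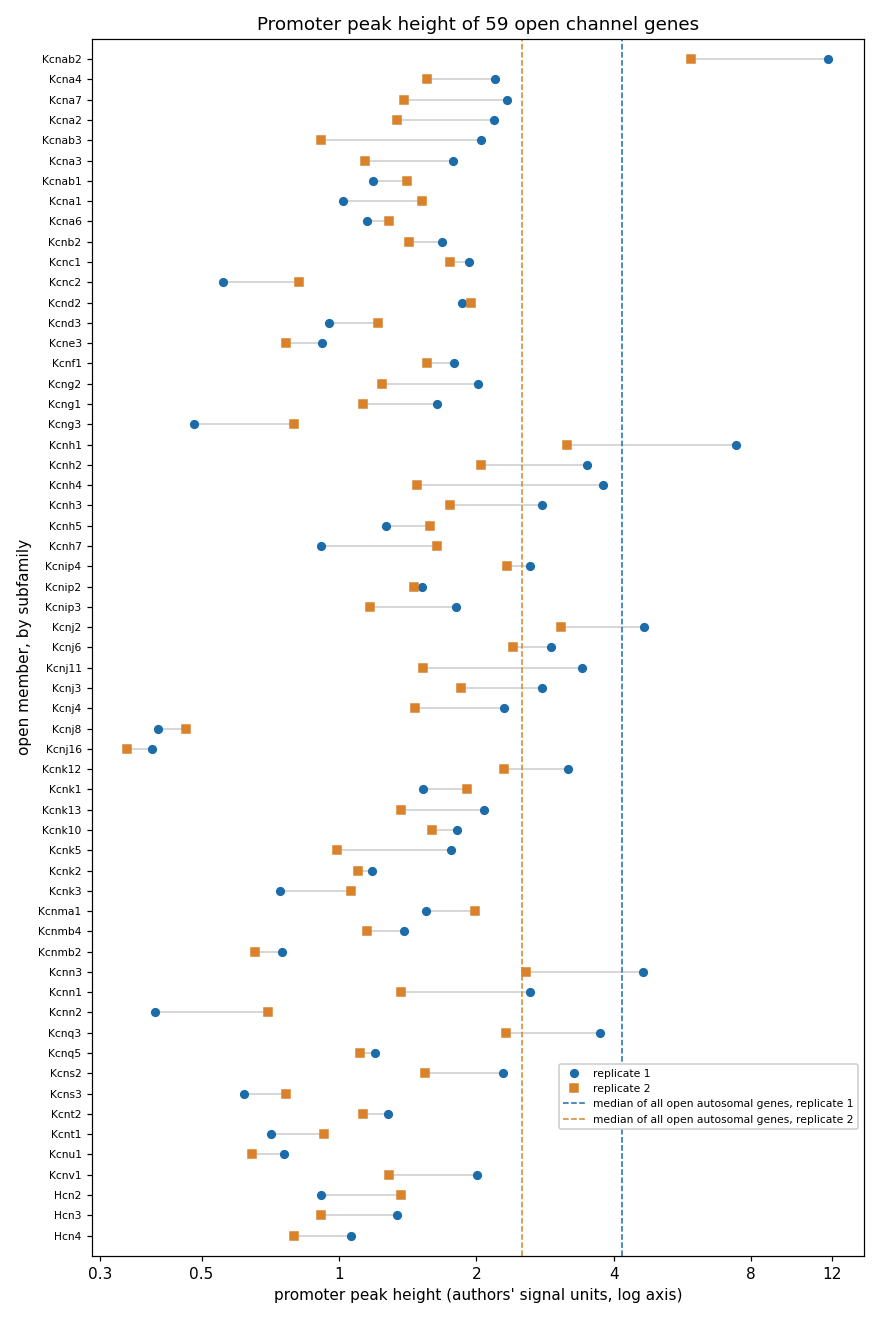
Promoter peak height (horizontal log axis, authors' signal units) of 59 open members, by subfamily down the page, with replicate 1 as blue circles and replicate 2 as orange squares. Dashed lines give the medians over all open genes, 4.16 in replicate 1 and 2.52 in replicate 2, and Kcnab2, Kcnh1, Kcnj2 and Kcnn3 have both points right of their lines.

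The replicates ordered the open members alike, with a Spearman rho of 0.797 over 63 genes, against 0.891 over all 12064 open genes. The members were relatively higher in replicate 2: 18 of 63, 28.6%, were higher there, against 12.8% of all open genes. Their median log2 ratio of replicate 2 over replicate 1 was -0.27, against -0.71 over all open genes. Calls in a lone replicate all came from replicate 1, in 11 members, 11.5% against 5.66% of all genes, and 0 members had a peak in replicate 2 only. Replicate 1 had 132685 peaks and 255536 footprints, and replicate 2 had 59880 peaks and 111355 footprints, so the longer list and the lone calls lie on the same side, and the part of list length in the lone calls was not tested. Of the 19 members without a peak 18 had no interval under the FDR limit in either replicate, the exception being Kcnj1 at 0.0445 in replicate 1.

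Where a member had starts more than 1000 bp apart, usually only some were open, as over all genes. Of 33 such members 4 had every cluster open (Kcna2, Kcnc1, Kcnj3 and Kcnk10), 12.1% against 5.47% of all 7074 such genes. Another 22 had some open, 66.7% against 58.2%, and 7 had none, 21.2% against 36.3%. Kcnn1 was open only at its second cluster, 6.25 kb downstream of the first, Kcnt1 only 14 kb and Kcnk2 only 58.0 kb downstream of the first. Kcnma1 was open at its second cluster, which carries 20 of its annotated transcripts, and not at the other clusters. Kcnip2 was open at the first of its 5 clusters alone.

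Open channel promoters were rich in GC but less so in CpG. Over 300 bases around the main start (250 before to 50 after) the median GC content was 62.3% in open members and 51.7% in members without a peak, against 60.7% and 47.0% over all open genes and all genes without a peak. Members with a peak in 1 replicate only or with peaks that did not overlap, 14 genes, had a median GC content of 63.8%, above that of the open members, against 56% over all such genes. The ratio of observed to expected CpG had a median of 0.562 in open members, against 0.76 over all open genes, of 0.658 in the 14 members between, against 0.435, and of 0.226 in members without a peak, against 0.174. The main start was not the open one in 11 of the 63 open members, among them Kcnab2, Kcnn1, Kcnt1, Kcnk2, Kcnu1 and Kcnj16, so their values describe a start without a shared peak. Over the 52 members with a shared peak at the main start the median GC content was 64.5% and the CpG ratio 0.646, against 61.3% and 0.781 over all such genes. Among open members the ratio spread widely, between 0.145 in Kcnf1 and 1.12 in Kcnh2. Kcnk9, a neuronal gene without a peak, had 0.763, the highest among members without a peak.

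**Figure D4:**
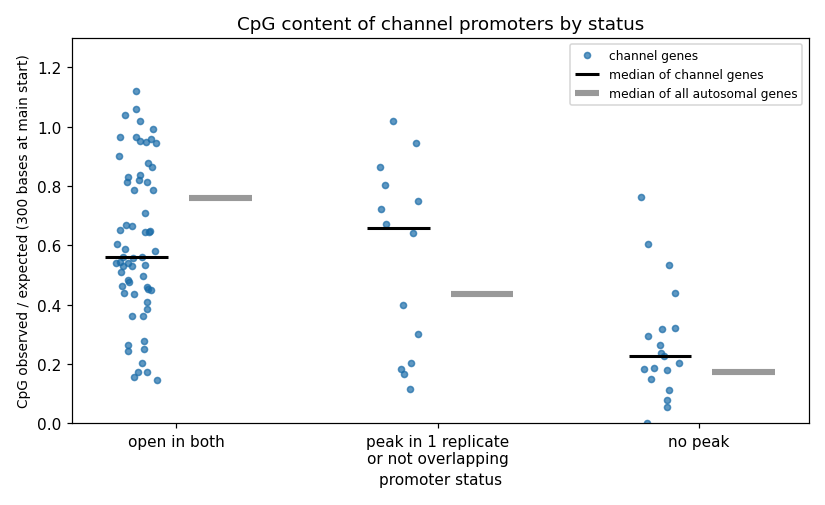
Ratio of observed to expected CpG in 300 bases at the main start (vertical axis) by promoter status (horizontal axis), with 1 blue point per channel gene, a black line at their median and a grey line at the median of all autosomal genes of that status. Open members spread widely around a median of 0.562, below the 0.76 of all open genes, and members without a peak lie around 0.226.

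Exact matches to 13 short motifs were searched on both strands of the same 300 bases. The cyclic AMP element TGACGTCA and the ETS site CCGGAAGT were in 0 of 96 members, against 2.42% and 4.98% of all genes, and the NRF1 site GCGCATGC was in 1, or 1.04% against 3.44%. The GC box GGGCGGGGC was in 16 members, 16.7% against 14.8% of all genes, but among open promoters in 19.0% of members against 22.1% of all open genes. TATAAA was in Kcnj1, Kcnj9, Kcnj13 and Kcnj15, none of them open in both replicates, or 4.17% against 12.7%. The CTCF core AGGGGGCGC was in Hcn3, Kcnh1 and Kcnh3, or 3.12% against 1.58%. The parts TTCAGCACC and GGACAGCGC of the element of the neuronal repressor REST were in Kcnh6 and Kcnk3 and in Kcnj4, or 2.08% and 1.04% against 0.367% and 0.507%. The rest were TGANTCA (AP-1) in 2.08% against 6.67%, CTAAAAATA (MEF2) in 1.04% against 0.458%, the E-boxes CAGCTG in 17.7% against 15.5% (14.3% against 14.6% among open promoters) and CATCTG in 18.8% against 15.3%, and TTGGCA (a partial site of NFI) in 9.38% against 13.7%. Of the 86 footprints of both replicates in member promoters 5, or 5.81%, held or touched a GC box within 10 bp, against 6.95% of 25368 footprints in all promoters.

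Away from promoters the channel genes were often accompanied by open sites. A distal site was a shared peak more than 2500 bp from every protein-coding start, inside the gene body or within 10 kb of it. At least 1 was found at 66 of 96 members, 68.8% against 41.8% of all genes, with 190 distinct sites in all. The median density was 1.54 sites per 100 kb of body and flanks, against 0 over all genes, and the means were 2.2 and 1.39. The members were longer, with a median body of 32.2 kb against 17.6 kb. Among bodies of at least 100 kb 22 of 24 members had a site, 91.7% against 83.8%, and the median density of members, 0.914, was below the 1.06 of all such genes. Among shorter bodies 61.1% of 72 members had a site, against 36.3%, with median densities of 2.19 and 0. Members were still longer within each class, with median bodies of 320 kb against 170 kb and of 18.8 kb against 14.3 kb. The split therefore does not remove the difference in length.

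Single members stood out by number or density. Kcnj6 had 13 sites, which formed 7 places once sites within 1000 bp were joined, and Kcnip1 had 10 sites in 10 places. Kcnd3 had 9 sites in 9 places, whereas the 9 sites of Kcnk12 formed only 2 places. Kcnma1 and Kcnn3 had 8 each in 7 places each. Of the Kv4 partners Kcnip1 carried most distal sites, and did so without an open promoter. Kcnip3 had 6 sites in 4 places and Kcnip4 had 5 sites in 5 places. Kcnk12 was the densest by sites, at 12.5 per 100 kb, and other dense members were Kcnn4 at 8.24, Kcne2 at 7.77, Kcnc4 at 7.27 and Kcng1 at 7.21. Many of the Kcnk12 sites were weak. Those ranked 187 to 190 of the 190 by mean height were all at Kcnk12, with heights up to 0.262 in replicate 1 and 0.377 in replicate 2. Of the 19 members without a promoter peak 11 had a distal site, 57.9% against 26.8% of all genes without a peak. These members were also longer, with a median body of 12.7 kb against 8.23 kb. Kcnd2 had 0 sites over a body of 514 kb and Kcnh5 0 over 280 kb.

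**Figure D5:**
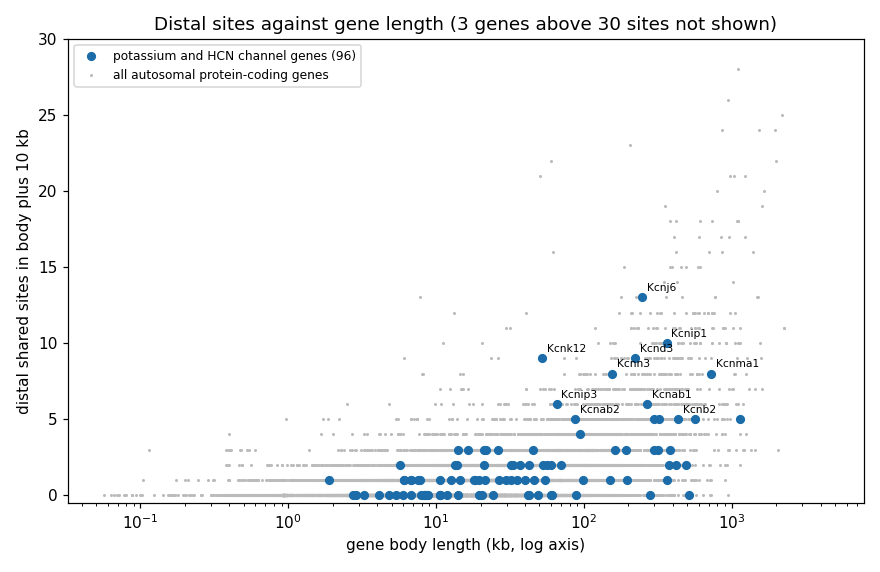
Number of distal shared sites in gene body plus 10 kb (vertical axis) against body length (horizontal log axis, kb) for the 96 channel genes in blue and all autosomal protein-coding genes in grey, with 3 genes above 30 sites not drawn. Kcnj6 is the highest channel gene with 13 sites, and Kcnk12 has 9 over a body of 52.2 kb.

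Most of these sites lay in introns: 138 of 190, 72.6% against 37.5% of all distal sites, with 18 in exons and 34 between genes. The rule takes sites in and near genes, which fixes part of that difference. The median site height was 1.51 in replicate 1 and 0.957 in replicate 2, against 1.28 and 0.871 over all 27629 autosomal distal sites, and 48.9% had a footprint of both replicates, against 46.2%. By mean height the strongest was the Kcnab2 intron site printed above, with 6.29 in replicate 1 and 2.97 in replicate 2, followed by the Kcna6 flank site with 5.19 and 3.11 and the Kcnk18 flank site with 4.26 and 3.46. The order differed between replicates, since in replicate 2 the Kcnk18 and Kcna6 sites were higher than the Kcnab2 site, and in replicate 1 a Kcnip4 site was higher than the Kcna6 site, and the Kcnk18 site was lower than the 5 sites named next. The first of these lay in introns of Kcnip4, with 5.29 and 2.4, and of Kcnma1, with 5.03 and 2.33. An intron of Kcnk9, whose promoter had no peak, held a site of 5.02 and 1.84 at chr15:72517121-72517280, and a site beside Kcne2 had 4.89 and 1.94. A site in an intron of Kcnn1 had 4.63 and 2.19.

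The same measures in other ion channel sets are given side by side, with no test, where 58.2% of all genes were open. Voltage-gated calcium channel alpha subunits were open in 8 of 9 cases, with median heights of 1.83 and 1.35. GABA-A receptor subunits were open in 11 of 16, with 1.73 and 1.43. Sodium channel alpha subunits were open in 4 of 10, with 2.15 and 1.22. The medians of the potassium and HCN channels, 1.78 and 1.39, lay among these. At least 1 distal site was found at 100% of the calcium channel, 68.8% of the GABA-A and 50% of the sodium channel genes. It was 68.8% of members and 41.8% of all genes. Median bodies of the 3 sets were 159, 89.6 and 111 kb, against 32.2 kb in members. A footprint of both replicates was in 62.5%, 72.7% and 75% of their open genes, against 69.8% of open members and 82.1% of all open genes.

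The partner proteins of these channels, auxiliary subunits, anchors and clustering proteins outside the symbol rule, were open in 17 of 22 cases, 77.3% against 58.2% of all genes. Their median body was 132 kb, and of all genes with bodies of at least 100 kb 82.3% were open. Dpp6, an auxiliary subunit of Kv4, had heights of 2.44 and 2.32, Pex5l, coding for the HCN partner TRIP8b, had 1.62 and 2.01, and Ank3, coding for ankyrin-G of the axon initial segment, had 1.47 and 1.1. Ank3 had 44 distal sites over 629 kb, more than any channel gene. Abcc8, the neuronal sulfonylurea receptor that pairs with the Kcnj11 product, was open at 0.914 and 1.09, and the vascular Abcc9, which pairs with that of Kcnj8, had no peak.

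As a check of the tissue, 5 of 6 markers of excitatory neurons and 5 of 6 pan-neuronal markers had open promoters, against 0 of 6 for liver and 0 of 6 for muscle. The share over all genes was 58.2%. Interneuron markers were open in 2 of 6 cases, astrocyte and oligodendrocyte markers in 3 of 6 each, microglial markers in 0 of 6, markers of vessels in 1 of 6 and of ependyma and choroid plexus in 1 of 6. The open ependymal marker was Foxj1, with heights of 7.36 in replicate 1 and 3.23 in replicate 2. The share of each cell type in the tissue is not given, and its part in the channel counts was not tested. Over the series 50780 peaks were shared by both replicates, 28180 of them more than 2500 bp from a protein-coding start.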

How the data were processed

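The authors deposited, for each of the 2 DNase-seq samples, 2 peak lists, a footprint list and a file of FDR values, all on assembly mm10 per the file headers and labels. Peak height was taken from the signal value in the deposited peak lists, whose normalization was not given in the sources used here. In the deposited FDR file each interval has a q-value, an adjusted p-value, and only intervals up to 0.05 are listed. Footprints were used by position, since the column that could score them is constant in the deposited files. Aligner and callers were not given in the sources used here. Sequencing depth is unknown.

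Shared peaks were intersected at 1 bp or more between the longer lists. Starts are those of protein-coding transcripts in GENCODE M21, sequences those of the RefSeq GRCm38.p6 genome, and the main start is that with most transcripts. Python 3.11.15 with numpy 2.4.6 and matplotlib 3.10.9 was used. Interval operations were tested on simulated data. Every member could be named; full values went to the 3 highest open genes of each letter, the HCN genes, genes without a peak or with a peak in 1 replicate, the 10 members with most distal sites or the densest, and the 10 strongest distal sites. Some members are counted but not reported one by one here. Members and lists were chosen with earlier results of these data known. With 1 group of 2 replicates no test was run. Alternatives covered the window, peak lists, overlap, starts, flanks and each replicate left out.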

Additional observations from a re-analysis of the deposited data

How the results depend on the processing

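The count of 63 open members was 41 with the stricter lists and 38 with 50% reciprocal overlap, and in both it fell below the share of all genes (42.7% against 52.3%, and 39.6% against 44.7%); with the top 50% of peaks it was 50, or 52.1% against 53.1%. The shares were also close with a window of 200 bp (56.2% against 55.7%) and with the main start only (54.2% against 53.9%). The 13 subfamilies above the share of all genes became 5 with the stricter lists, 8 with reciprocal overlap, 6 with the top 50% of peaks, 8 with the main start only and 8 with the list of replicate 1 reduced to the length of that of replicate 2, an alternative chosen after seeing the data. Each of these counts is against the share of all genes in the same setting. The median height in replicate 1 was 1.33 when the median of the peaks in the window was taken. The 190 distal sites became 322 with flanks of 50 kb, 86 with the stricter lists and 120 with reciprocal overlap, and members with a distal site became 43 with the stricter lists, 44.8% against 25.4% of all genes. With 1 replicate left out, open members ranged between 66 and 77 (68.8% against 59.6% of all genes, and 80.2% against 64.6%). Of the 63 members open in both replicates, between 57 and 62 had a footprint of the replicate kept. The share over all open genes is not given for these footprint counts. Members with a distal site ranged between 68 and 83 (70.8% against 44.4% of all genes, and 86.5% against 68.0%). Distal sites ranged between 246 and 689, and median density between 1.78 and 5.91 per 100 kb. The upper value rests on replicate 1 alone in each case. The median density was 0 with the stricter lists, 0.34 without flanks and 0.689 with reciprocal overlap. The cause of these shifts was not tested. Joining sites within 1000 bp, also chosen after seeing the data, gave 170 places. Most other values of summary results stayed within 1.5 times or 1 SD of those reported. For median density this SD was 2.93, above the reported 1.54, so even a fall to 0 stayed within it. That limit therefore says nothing of falls in density. No paired analysis was possible because the series holds 1 group. With 2 replicates no spread between animals can be given, and depth is unknown.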

Other observations

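Motifs chosen after the sequences were seen gave 2 further descriptions. The CCAAT box (CCAAT on either strand), which the Kcnab2 promoter run holds 3 times, was in 17 open members, 27% against 38.6% of all open genes, over the 300 bases at the main start. That window misses the open promoter of 11 open members, Kcnab2 among them, whose main start lies elsewhere. Over the genes with a shared peak at the main start the box was in 14 of 52 members, 26.9% against 38.9% of 11163 genes. The CTCF consensus was in 23 of the 190 distal sites of channel genes, 12.1% against 10.5% of all distal sites, among them sites beside or within Kcnk18, Kcnip1, Kcnip4, Kcnq3 and Kcnj10. Over the promoters it was in 1 member, or 1.04% against 0.555%.

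Kcnj9 and Kcnj10, neighbours on chromosome 1, both had a promoter peak in replicate 1 (2.78 and 2.65) and none in replicate 2.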
